A study of Mus musculus with 59 samples.

Results

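The genes of cholesterol export and of the liver X receptors (LXR) are described here in embryoid bodies exposed to serum of mice that develop amyotrophic lateral sclerosis (ALS). They are the rows of the gene table whose symbols are Nr1h2 and Nr1h3 (the receptors LXR beta and LXR alpha), Abca1, Abcg1, Abcg4 and Apoe (export), Mylip and Srebf1 (regulators of uptake and lipid synthesis), and Scd1 and Lpcat3 (fatty acid and phospholipid enzymes). All 10 of them were found among 19613 genes. The list was chosen on measured values, because Abca1 had been lower with carrier serum in every run. The values of Abca1 by serum are therefore given as a description, with no test, and the question asked of the other 9 genes is whether they followed it.

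The indicator cells were embryoid bodies holding spinal motor neurons, derived from the mouse embryonic stem cell line HBG3, which carries a fluorescent reporter of the motor neuron gene HB9 (Mnx1). They were cultured for 24 h with serum of pre-symptomatic male mice hemizygous for a mutant human SOD1 transgene (carrier, 29 arrays) or of non-carrier littermates (30 arrays), all F1 progeny of C57BL/6 and SJL. The labels give 9 weeks to 26 carrier and 27 non-carrier arrays and 10 weeks to 3 and 3, with the word cultures beside it, and this was taken here as the age of the mice that gave serum. The cells of both groups came from 1 stem cell line and were exposed as whole embryoid bodies, so that the RNA is that of all their cell types. RNA was measured on Affymetrix mouse exon arrays, and arrays were taken as 9 runs from their titles (motorneuron, HB9MNs, A to F and a 10-week run) with 2 to 6 arrays of each serum in a run. A carrier array of run E stood apart, since its highest r with any other array was 0.981 while the next lowest of the 59 was 0.989. The main values without it are given below, and counts of runs higher or lower include it.

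LXR are nuclear receptors that bind oxysterols, the oxidised products of cholesterol, and work on DNA as partners of the retinoid X receptors (RXR). When sterols accumulate in a cell they raise transcription of the exporters Abca1 and Abcg1, which pass cholesterol to apolipoproteins and to lipoprotein particles, of the ubiquitin ligase gene Mylip, whose product limits lipoprotein uptake, and of the lipogenic regulator Srebf1. In nervous tissue the cholesterol that glia export is carried mainly by apolipoprotein E.

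The element that LXR and RXR bind together is a direct repeat of the half-site AGGTCA with 4 bases between the copies, and the best match to it in each gene's promoter is shown here because the receptors' best known targets are compared below. RefSeq promoters (mouse build GRCm38.p6, 250 bases before to 50 bases after a transcript start) were at hand for 7 of the 10 genes and 12 starts, and for Abcg1, Abcg4 and Scd1 the sequence was not used here. On both strands, allowing overlapping matches, the fewest mismatches over the 12 bases of the repeat were 3, in the promoter of Abca1 and in 1 of 3 starts of Srebf1. The other 10 starts had 4 or 5. A best match of at most 3 mismatches is common, since 21.9% of the 32851 promoters held one. The match of Abca1 consists of the half-sites GGGTTA and CGGTCA, and this pair with a gap of 4 bases stood in 3 of the 32851 promoters (0.00913%), those of Abca1, Srebf1 and the fatty acid synthase gene Fasn. The half-sites are in capitals in the 3 windows, and all 3 genes lie on the minus strand while the windows are read on the plus strand:
Abca1, chr4:53159940-53159969: agcgccgGGGTTActacCGGTCAaacgctg
Srebf1, chr11:60210631-60210660: cgcgctgGGGTTActggCGGTCActgtcgt
Fasn, chr11:120824750-120824779: tcaggcgGGGTTActacCGGTCAtcgtggc
The match lies 67 to 52 bases before the start in Abca1, 182 to 167 in Srebf1 and 225 to 210 in Fasn. Abca1 and Fasn shared the spacer as well, and Srebf1 differed from them in it. A match of letters is a description of the window only. The 3 genes are set side by side again beside their responses to serum.

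Abca1, the exporter that loads cholesterol and phospholipid onto lipid-poor apolipoproteins, had a log2 intensity of 7.09 to 7.79 with a median of 7.46 on the carrier arrays and of 7.29 to 8.10 with a median of 7.64 on the non-carrier arrays. The groups overlapped over all arrays. Their means were 7.47 ± 0.20 (SD, n = 29) and 7.63 ± 0.25 (SD, n = 30). With the run as a block the carrier minus non-carrier difference was -0.14 on the log2 scale (SE 0.024), a ratio of 0.909. This contrast chose the gene.

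Within runs the arrays of the sera were apart for Abca1 in 4 of 9 runs. In run D the carrier arrays had 7.46, 7.55 and 7.59 and the non-carrier arrays 7.65, 7.68, 7.74 and 7.80. In run E they had 7.64, 7.77 and 7.79 against 7.82, 7.95 and 8.004, and in run F 7.58, 7.67 and 7.68 against 7.74, 7.87 and 7.91. In the 10-week run they had 7.65, 7.69 and 7.74 against 7.83, 7.95 and 8.10. In these 4 runs every carrier array lay below every non-carrier array, and the differences of the means were -0.18, -0.19, -0.20 and -0.27. In the other 5 runs the arrays overlapped, and the differences were smaller, from -0.04 in the motorneuron run to -0.13 in run B. In the motorneuron run the carrier arrays had 7.57, 7.67 and 7.72 and the non-carrier arrays 7.62, 7.63, 7.65 and 7.85. The lower carrier mean of that run rested on the non-carrier array at 7.85. Of all genes, 1.11% had a lower carrier mean in all 9 runs and 2.3% had carrier arrays wholly below non-carrier arrays in 4 or more runs. Both shares used the values that chose Abca1, and nothing is read from them.

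**Figure D1:**
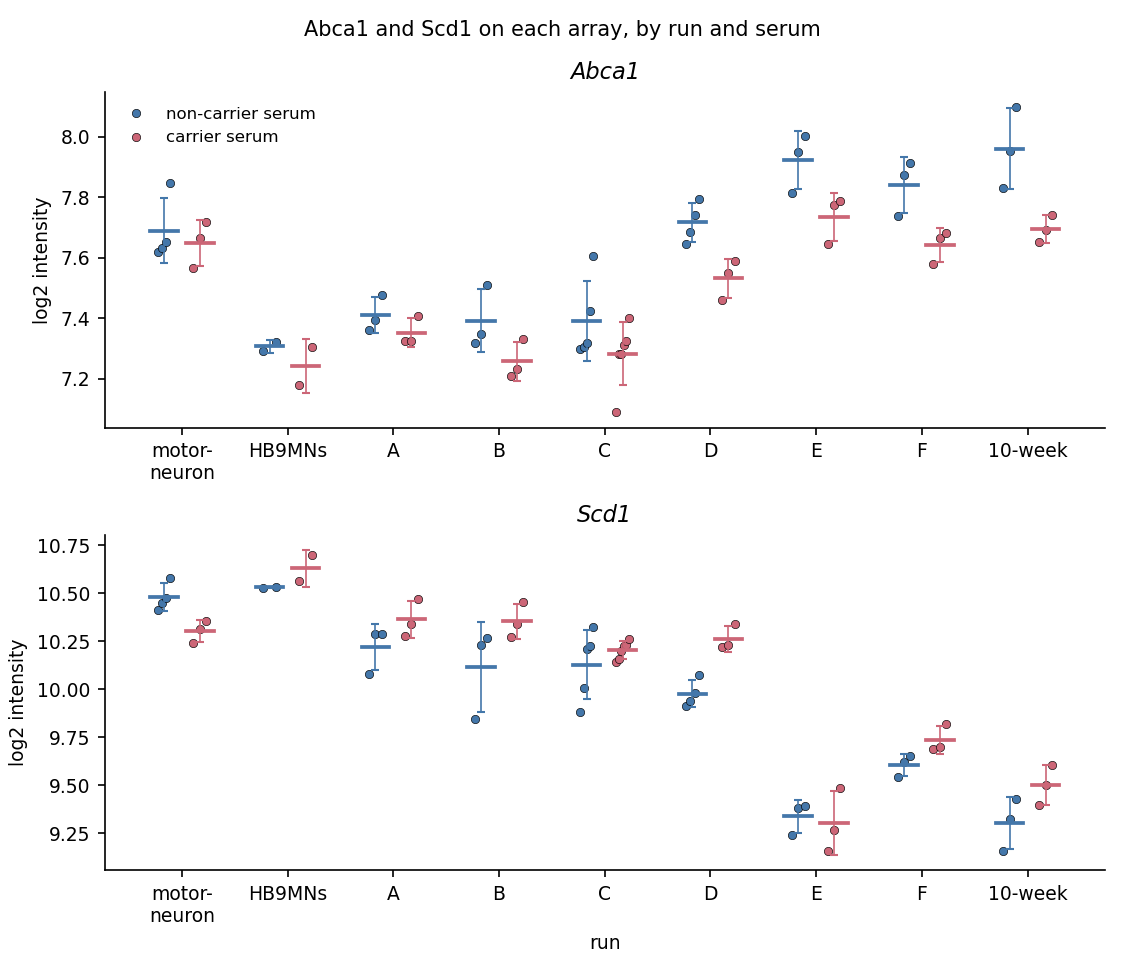
Log2 intensity of Abca1 (top) and Scd1 (bottom) on each of 59 arrays, by run, with non-carrier serum in blue and carrier serum in red. Points are arrays, thick lines are means and bars are 1 SD. Abca1 on the carrier arrays lay wholly below the non-carrier arrays in runs D, E, F and 10-week, and Scd1 on the carrier arrays lay wholly above in HB9MNs, B, D and F and wholly below in the motorneuron run.

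The level of Abca1 also differed between runs. Over the non-carrier arrays the run means went from 7.31 ± 0.02 (SD, n = 2) in HB9MNs through 7.39, 7.39 and 7.41 in C, B and A to 7.69 ± 0.11 (SD, n = 4) in the motorneuron run and 7.72 in D. The highest were 7.84 in F, 7.92 in E and 7.96 ± 0.13 (SD, n = 3) in the 10-week run. Neighbours in this order lay closer than the SD within runs and sera, 0.091, except at the steps from A to the motorneuron run and from D to F. The runs with the highest Abca1 on non-carrier serum were thus also among those in which the sera were apart, although the non-carrier mean enters both values.

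None of the other 9 genes passed the test for a change with carrier serum. In limma with the run as a block and Benjamini-Hochberg adjustment over all 19613 genes, 0 of 9 had an adjusted p under 0.05, where 2.33% of all genes did, 1.65% lower and 0.683% higher. At an unadjusted p under 0.05 there was 1 of 9, Scd1, where 20.7% of all genes passed. The changes of the 9 ran from -0.049 to 0.10 with a median of 0.015, beside a median of 0.016 over all genes. All of the 9 but Nr1h3 lay in the upper part by mean intensity. With genes below the median intensity left out, the median over all genes was -0.0096. Of the 9 estimates 3 were negative and 6 positive.

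**Figure D2:**
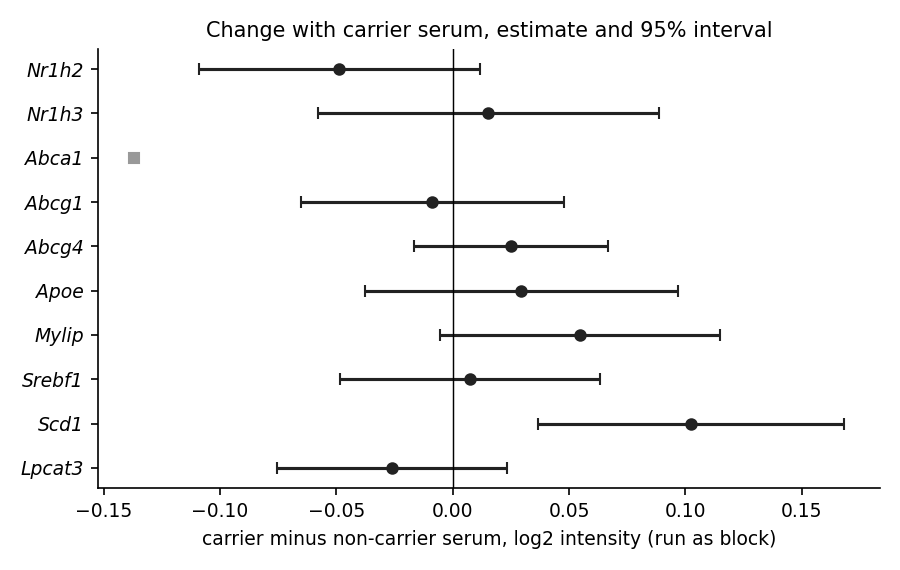
Carrier minus non-carrier change in log2 intensity for each gene, with the run as a block, over 59 arrays. Points are estimates and bars 95% intervals, and Abca1, which was chosen on this contrast, is the grey square at -0.14 with no interval. Of the other 9 genes, the intervals of 8 include 0, and that of Scd1 runs from 0.037 to 0.17.

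The receptors themselves did not pass the test. Nr1h2, the widely expressed LXR beta, had 8.31 to 9.46 with a median of 8.75 on the carrier arrays and 8.44 to 9.53 with a median of 8.85 on the non-carrier arrays. Its change was -0.049 (SE 0.030), with a lower carrier mean in 7 of 9 runs and an adjusted p of 0.339 in limma. Nr1h3, the LXR alpha of liver, fat and macrophages, had 5.91 to 7.11 (median 6.38) and 5.90 to 7.16 (median 6.40). Its change was 0.015 (SE 0.037, adjusted p 0.826), and it was the 1 gene of the 10 whose mean intensity lay below the median of all genes. The arrays of the sera overlapped in all 9 runs for Nr1h2 and in 8 for Nr1h3.

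The exporters Abcg1 and Abcg4 did not pass the test. Abcg1, which passes cholesterol to high-density lipoprotein, had 8.16 to 8.97 (median 8.48) with carrier and 8.01 to 9.09 (median 8.50) with non-carrier serum. Its change was -0.0087 (SE 0.028, 95% interval -0.07 to 0.05, adjusted p 0.875), with 6 runs lower and 3 higher. Abcg4, the neural relative of Abcg1, had 8.17 to 8.76 (median 8.42) and 8.06 to 8.75 (median 8.38). Its change was 0.025 (SE 0.021, adjusted p 0.480) with 7 of 9 runs higher, and its arrays were apart, carrier higher, in HB9MNs and B. Those of Abcg1 were apart in HB9MNs alone, carrier lower. HB9MNs has 2 arrays of each serum, so that arrays are readily apart there. The share of all genes apart in a given run was not counted, and nothing is read from single runs. In run D, where Abca1 differed by -0.18, Abcg1 differed by -0.09 and Abcg4 by 0.06 with overlapping arrays. In run F, where Abca1 differed by -0.20, Abcg1 and Abcg4 differed by 0.11 and 0.05.

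Apoe, the acceptor of exported cholesterol, had 7.20 to 8.41 (median 7.68) on the carrier arrays and 7.26 to 8.52 (median 7.69) on the non-carrier arrays. Its change was 0.030 (SE 0.034, adjusted p 0.617), with 5 runs lower and 4 higher. Run F alone had its arrays apart, with carrier values of 7.94 to 8.06 above non-carrier values of 7.71 to 7.91. Mylip, the ubiquitin ligase gene that limits lipoprotein uptake, had 7.09 to 7.66 (median 7.38) and 7.08 to 7.55 (median 7.31). Its change was 0.055 (SE 0.030, adjusted p 0.286) with 7 of 9 runs higher. The arrays of Mylip were apart in HB9MNs alone, carrier lower. In run D 1 carrier array of Mylip was at 7.63, above the other arrays of that run, and the run's difference of 0.23 came with a carrier SD of 0.21.

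Srebf1, the master regulator of fatty acid synthesis genes, had 7.56 to 8.20 (median 8.02) with carrier and 7.65 to 8.25 (median 7.99) with non-carrier serum. Its change was 0.0074 (SE 0.028, adjusted p 0.894), with the arrays apart in HB9MNs (carrier lower, 2 arrays of each serum) and in F (carrier higher). The 3 genes whose promoters held the half-sites GGGTTA and CGGTCA thus had changes of -0.14 for Abca1, 0.0074 for Srebf1 and 0.058 for Fasn (SE 0.032, adjusted p 0.284). With Mnx1, Isl1, Lhx3 and Olig2 added to the fit, which called 31.2% of all genes, Fasn passed at 0.13 (adjusted p 0.00245 in limma) and Srebf1 at 0.08 (0.0197). Fasn also passed at 0.10 with array weights (0.00429), and neither gene passed under the other settings. Lpcat3, which puts polyunsaturated acyl chains into phospholipids, had 8.81 to 9.69 (median 9.49) and 8.91 to 9.71 (median 9.51). Its change was -0.026 (SE 0.025, adjusted p 0.535), and the run differences went both ways, from -0.17 in E to 0.15 in A. The arrays of Lpcat3 were apart in HB9MNs and A, carrier higher, and in the 10-week run, carrier lower. The difference in E rested on the carrier array that stood apart, at 9.20 where the other 2 had 9.58 and 9.69, and it was -0.03 without that array. Over all runs the change of Lpcat3 was then -0.011 (adjusted p 0.790 in limma).

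Scd1, which desaturates stearate to oleate, stood nearest to the threshold, and in the direction opposite to Abca1. It had 9.16 to 10.70 (median 10.23) on the carrier arrays and 9.16 to 10.58 (median 10.04) on the non-carrier arrays, so that the groups overlapped over all runs. In run D the carrier arrays had 10.22, 10.23 and 10.34 and the non-carrier arrays 9.92, 9.94, 9.98 and 10.08. In the motorneuron run, by contrast, the carrier arrays had 10.24, 10.31 and 10.36 and the non-carrier arrays 10.42, 10.45, 10.48 and 10.58. Carrier arrays were wholly higher in 4 runs (HB9MNs, B, D and F) and wholly lower in the motorneuron run, and 1.18% of all genes had carrier arrays wholly higher in 4 or more runs.

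The change of Scd1 was 0.10 (SE 0.033, 95% interval 0.037 to 0.17), a ratio of 1.07, with 7 of 9 runs higher and an adjusted p of 0.0765 in limma. The call depended on the fit. Scd1 passed at 0.14 without the motorneuron run (adjusted p 0.0118), at 0.14 with array weights (0.00198), at 0.11 after quantile normalization (0.0446) and at the same 0.10 when genes below the median intensity were left out (0.0419), and it did not pass under the other settings tried bar 1. That 1 setting, with the 4 motor neuron genes Mnx1, Isl1, Lhx3 and Olig2 added to the fit, gave 0.12 for Scd1 (0.0253), 0.08 for Srebf1 (0.0197) and 0.06 for Abcg4 (0.0475), all higher with carrier serum, and called 31.2% of all genes. The paper used the same 4 genes to correct for batches of neurons, through a linear model built from non-carrier assays. Its correction was not repeated here, where the 4 genes were covariates beside the run. Abca1 was lower under each of the 21 settings, from -0.15 to -0.11, and at -0.14 without the carrier array that stood apart. Because Abca1 was chosen for a lower carrier mean in every run, its sign under these settings is no test of it.

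**Figure D3:**
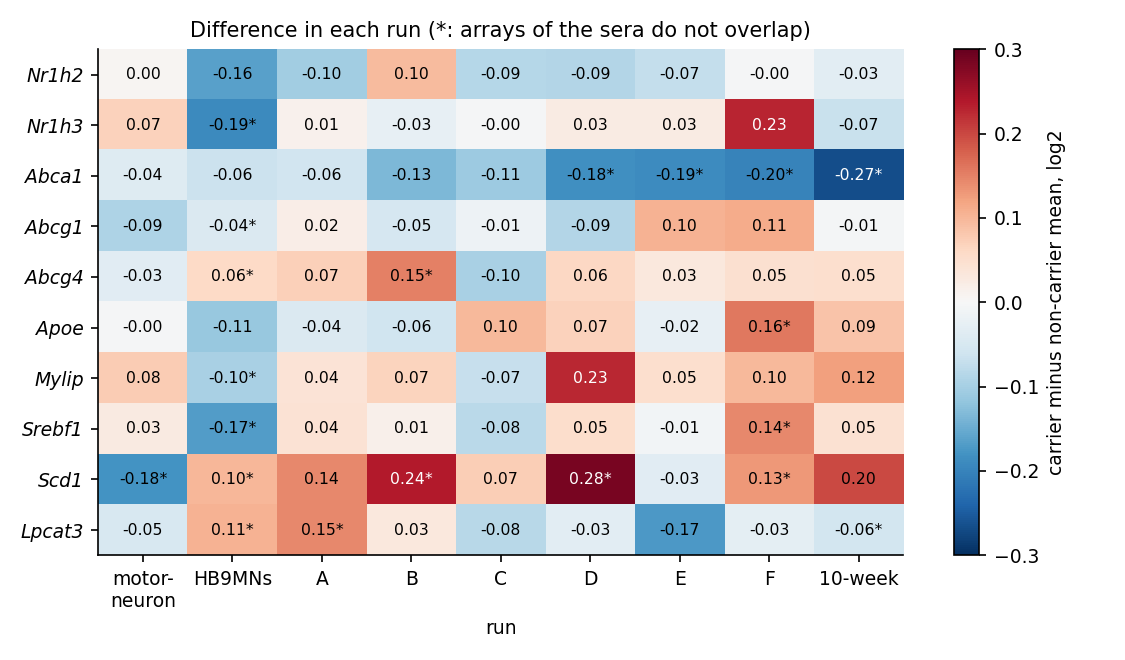
Carrier minus non-carrier mean log2 intensity in each of 9 runs for the 10 genes, in blue where carrier was lower and red where it was higher; an asterisk marks runs in which the arrays of the sera did not overlap. The row of Abca1 is negative throughout, from -0.04 to -0.27, and every other row holds both signs. The sign of Abca1 in the motorneuron run rested on a single non-carrier array.

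The run took from 43.6% of the variance for Mylip to 90.8% for Scd1. All 10 passed the F-test of limma for differences between runs, as did 94% of all genes, so that the count is close to the background. The span of run means was widest for Scd1, from 9.32 in E to 10.58 in HB9MNs, and narrowest for Mylip, from 7.20 in HB9MNs to 7.52 in the motorneuron run. Run E had the lowest mean for 6 genes, namely Abcg1, Srebf1, Nr1h2, Nr1h3, Apoe and Scd1, whereas Abca1 was highest there, at 7.830 against 7.828 in the 10-week run. The motorneuron run had the highest mean for 6 genes, namely Abcg1, Mylip, Srebf1, Nr1h2, Nr1h3 and Apoe, and the lowest for Abcg4 and Lpcat3. The median intensity of all genes was 164 to 183 on the arrays of that run and 151 to 168 in the other runs, and its part in these orders was not tested. Runs rest on the titles alone, the labels name no batch, and run C with its 11 arrays may hold more than 1. Fewer cells of a type and less RNA per cell cannot be told apart in such bulk samples.

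Over the 9 genes the change with carrier serum did not detectably depend on the run. The F-test of the serum by run interaction called 0 of 9 at an adjusted p under 0.05, where 0.127% of all genes (25) were called. At an unadjusted p under 0.05 there was 1 of 9 where 7.94% of all genes passed, and this was Scd1, with a p of 0.0176 and an adjusted p of 0.515 in limma. Abca1 was not tested, because it was chosen for having 1 sign in every run.

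Beyond the means, arrays of the same run and serum differed in Abca1, and these residuals were compared with those of other genes as a description over 59 arrays. The arrays share their runs and the normalization, and the first principal component of the residuals of all genes took 20.4% of their variance. Pearson's r of Abca1 with the other 9 genes lay between -0.13 for Abcg4 and 0.30 for Nr1h2. The exporter Abcg1 had 0.20, Apoe 0.15, Nr1h3 0.10 and Srebf1, Lpcat3, Mylip and Scd1 between -0.03 and 0.04. Some of these differed between the sera. Over the carrier arrays alone the r was -0.56 for Abcg4, 0.42 for Scd1 and -0.26 for Srebf1, and over the non-carrier arrays it was 0.15, -0.25 and 0.20. These differences were not tested. By rank among 19612 genes the nearest of the 9 to Abca1, Nr1h2, stood at 1701 and Abcg1 at 4528. With the first component removed, the r of Srebf1 with Abca1 was -0.14 and that of Nr1h2 0.25.

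The 5 genes with the highest r to Abca1 were Akna (0.71), Stc2 (0.68), Pycr1 (0.68), Slc1a5 (0.68) and Rims3 (0.68). Stc2 encodes a secreted glycoprotein, Pycr1 the last enzyme of proline synthesis, Slc1a5 a transporter of neutral amino acids and Rims3 a presynaptic protein. Within the non-carrier arrays alone their r with Abca1 was 0.66 to 0.81, and within the carrier arrays 0.39 to 0.73. The 5 were picked over these same arrays, so the values within a serum are no separate check. The 5 with the lowest r were Fis1 (-0.66), Zfp418 (-0.66), Srsf2 (-0.64), Vcan (-0.64) and Gart (-0.64). Of these 10 genes 4 passed the test with carrier serum in limma, where 2.33% of all genes did. They were picked by their r with Abca1, which was itself chosen on the serum contrast. Nothing is therefore read from their count beside that share. Akna was lower at -0.11 (adjusted p 0.0453), Pycr1 at -0.24 (0.0313) and Rims3 at -0.14 (0.0155), and Srsf2 was higher at 0.087 (0.0376). None of the other 9 genes of cholesterol export and LXR was among these 10.

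The other 9 genes covaried more among themselves than with Abca1 in several pairs. Nr1h3 and Abcg1 had an r of 0.62, Nr1h2 and Srebf1 0.61, Abcg1 and Srebf1 0.56 and Nr1h3 and Srebf1 0.51, and all 4 pairs were positive within each serum too. These pairs were named for their high r over the same arrays, so their sign within a serum is no separate check. Apoe and Mylip had 0.47, and Apoe and Lpcat3 -0.49. Part of this was shared with the whole array: the residuals of Apoe had an r of size 0.75 with the first component and those of Srebf1 0.63, against 0.24 for Abca1. With that component removed, the r was 0.50 for Nr1h3 and Abcg1, 0.56 for Nr1h2 and Srebf1, 0.39 for Abcg1 and Srebf1, 0.25 for Nr1h3 and Srebf1, 0.18 for Apoe and Mylip and -0.34 for Apoe and Lpcat3.

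**Figure D4:**
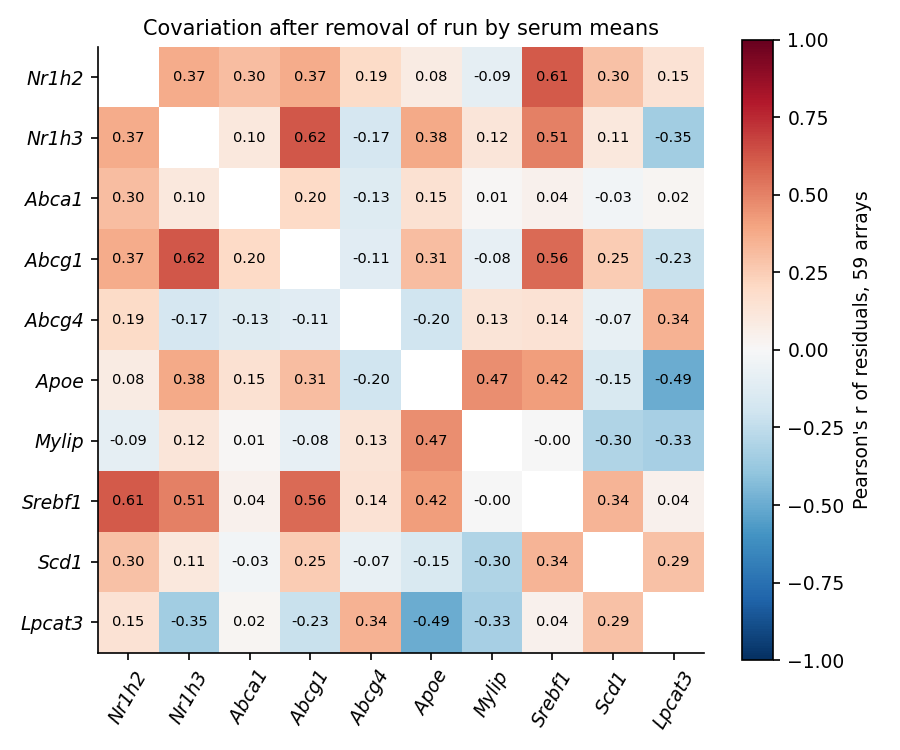
Pearson's r between the 10 genes over 59 arrays, computed on log2 intensities after the mean of each run and serum was subtracted. Red is positive and blue negative on a scale from -1 to 1. The row of Abca1 holds values from -0.13 to 0.30, and the highest values, 0.62, 0.61 and 0.56, join Abcg1, Srebf1 and the receptors.

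For each of the 9 genes the single most similar gene by this measure was N28178 for Abcg1 (r 0.83), Dgkk for Abcg4 (0.76), X4930568D16Rik for Mylip (0.72), Sbno2 for Srebf1 (0.86) and Fbrs for Nr1h2 (0.80). It was Klhl14 for Nr1h3 (0.72), Ano1 for Apoe (0.82), Ddost for Lpcat3 (0.82) and Scd2 for Scd1 (0.74). Scd2, the main stearoyl desaturase gene of the brain, is a near relative of Scd1, and the probes of related genes can share signal. None of these 9 nearest genes passed the test for carrier serum.

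In the wider pathway 2 of 68 analysed genes passed the test with carrier serum, 2 lower and 0 higher, over lists of other LXR targets, RXR and co-regulators, oxysterol enzymes, sterol transport and storage, and uptake and synthesis. The shares over all genes were 1.65% and 0.683%. Fads1, the delta-5 desaturase of polyunsaturated fatty acids, fell by 0.065 (SE 0.017, adjusted p 0.0320 in limma), from a mean of 11.18 ± 0.15 (SD, n = 30) to 11.13 ± 0.19 (SD, n = 29). Soat1, which esterifies cholesterol for storage, fell by 0.073 (SE 0.021, adjusted p 0.0476), from 8.71 ± 0.17 (SD, n = 30) to 8.64 ± 0.13 (SD, n = 29). The residual r with Abca1 was 0.46 for Soat1 (rank 275 of 19612 genes) and 0.37 for Fads1 (rank 826). These lay above the 0.30 of Nr1h2, the highest of the 9 genes, and were not tested. Neither Fads1 nor Soat1 was called without any 1 of runs A, B, D, E, F or 10-week or after quantile normalization. Fads1 alone was called without the carrier array that stood apart (Soat1 then had 0.0596), Soat1 alone without the motorneuron run, and 13 pathway genes were called without run C. At an unadjusted p under 0.05 there were 22 of 68, where 20.7% of all genes passed.

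Of the 16 other LXR targets 1 passed, Fads1, and the median change was 0.031, with 4 estimates negative and 12 positive (7 and 9 after quantile normalization). Pltp, which transfers phospholipid between lipoproteins, had the largest size of change there, -0.09 (SE 0.031, adjusted p 0.104), and a lower carrier mean in all 9 runs, as did 1.11% of all genes. Its residual r with Abca1 was 0.25. The exporter pair Abcg5 and Abcg8 had changes of 0.060 and 0.072 (adjusted p 0.217 and 0.247). So of the LXR targets beside Abca1, the lipoprotein gene Pltp had its sign in every run without passing the test in the main fit. Pltp passed at -0.098 without run C (adjusted p 0.0493 in limma) and under no other setting.

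The RXR genes and co-regulators had 9 of 10 estimates below 0 (7 to 9 under the other settings), as did 7629 of all 19613 genes. Their median was -0.037 beside 0.016 over all genes, and none passed. All 10 stayed when genes below the median intensity were left out, and the median over the genes then left was -0.0096. Rxrb, the receptor partner with the largest change, was at -0.056 (SE 0.023, adjusted p 0.159), and Rxra at -0.053 (0.264). None of 10 oxysterol enzymes passed, with a median of 0.032. Cyp39a1, a 7-alpha-hydroxylase of 24-hydroxycholesterol, had the largest change there, 0.11 (SE 0.037, adjusted p 0.0867), and Cyp46a1, which makes 24-hydroxycholesterol in neurons, was at -0.042 (0.386). Cyp39a1 passed at 0.11 with array weights (adjusted p 0.0170 in limma) and at 0.13 without run C (0.0425), and under no other setting.

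In sterol transport and storage 1 of 21 genes passed, Soat1, and the median was -0.027. Scarb1, the receptor for high-density lipoprotein, had the largest size of change, -0.087 (SE 0.026, adjusted p 0.0603), and passed under 5 settings, among them run C in 2 blocks (0.0258). Abca1's relatives Abca2, Abca3, Abca5 and Abca7 were at -0.036, -0.045, -0.027 and 0.016, none called in the main fit. Abca5 passed at -0.13 with the 4 motor neuron genes in the fit (adjusted p 0.00217 in limma), and Abca2, Abca3 and Abca7 passed under no setting. In uptake and synthesis 0 of 11 analysed genes passed in limma (3 at an unadjusted p under 0.05), and the median was 0.021. Vldlr, a receptor for Apoe-bearing particles, had the largest size of change there, -0.13 (SE 0.048, adjusted p 0.125). It passed at -0.21 without run C (5.29e-05), at -0.16 with array weights (0.0136) and at -0.16 with the 4 motor neuron genes in the fit (0.0139). Hmgcs1 was not analysed here.

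**Figure D5:**
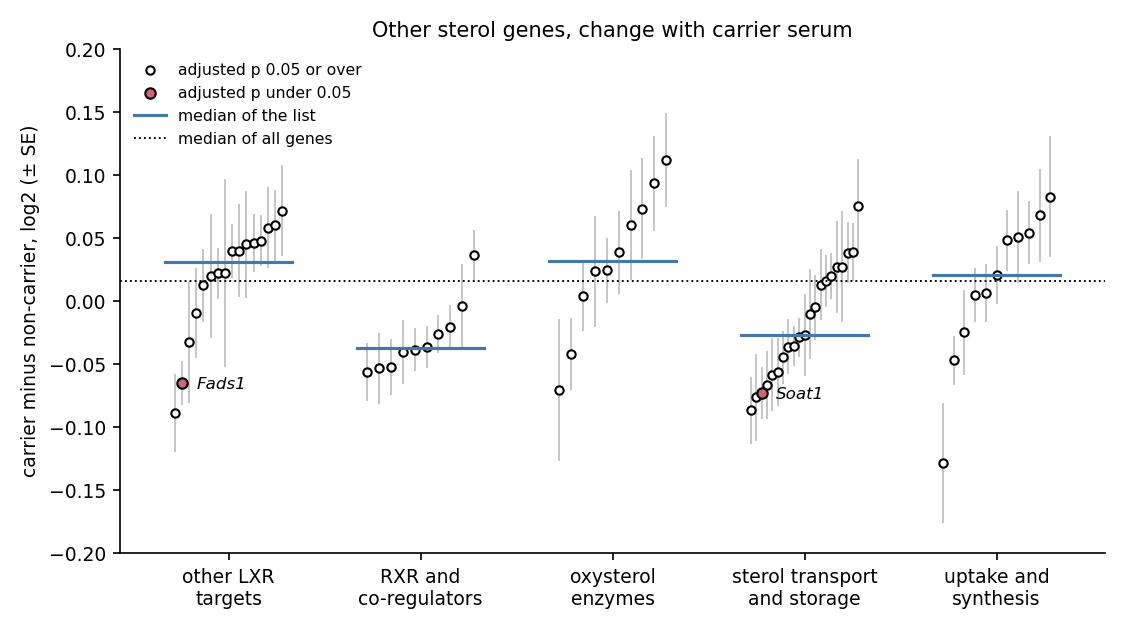
Carrier minus non-carrier change in log2 intensity of 68 other sterol genes in 5 lists, sorted within a list. Bars are 1 SE, filled points passed an adjusted p of 0.05, blue lines are list medians and the dotted line is the median of all genes, 0.016. The 2 filled points, Fads1 and Soat1, lay below 0.

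The cells held the labelled tissue's markers. The motor neuron genes Mnx1, Isl1, Lhx3, Olig2 and Chat had non-carrier means of 8.89, 10.48, 9.10, 8.90 and 9.06, and 0 of these 5 passed the test with carrier serum. Olig2, of the progenitors, was at -0.085 (adjusted p 0.0936) and Lhx3 at -0.086 (0.105), while Isl1 was at 0.053 (0.114) with 6 of 9 runs higher. The summed intensity of the 5 was 2675 to 3883 on carrier and 3112 to 3829 on non-carrier arrays. The residual r with Abca1 was 0.44 for Olig2, 0.24 for Mnx1, -0.15 for Lhx3 and -0.30 for Isl1, and with those 4 genes other than Chat in the fit the difference of Abca1 was -0.11.

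Of the 6 measured astroglial markers 1 passed, the glutamate transporter Slc1a2, which fell by 0.068 (SE 0.018, adjusted p 0.0307). The summed intensity of the 6 was 7392 to 10493 on carrier and 6755 to 10971 on non-carrier arrays. Most of that sum was Fabp7, with a non-carrier mean of 12.88 on the log2 scale where Slc1a2 had 8.61. The residual r of Slc1a2 with Abca1 was 0.01, and its part in the difference of Abca1 was not tested. None of the 6 endoderm markers passed, and none of the 6 markers of macrophages, cells in which Abca1 is abundant. Their summed intensities were 349 to 982 and 474 to 787 on carrier arrays and 363 to 975 and 467 to 773 on non-carrier arrays. No marker was at 0, as array intensities always hold background. The median intensity of an array was 151 to 183, and no pair among the 59 arrays had identical values.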

How the data were processed

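The authors made the deposited values by robust multi-array averaging (RMA) in aroma.affymetrix and gave each gene the mean of its exons, after removing arrays that failed an outlier test; the submitters' processing notes also name Expression Console. What they deposited is a linear intensity for each of 19613 genes, with the genome build not given in the sources used here. They were taken to log2 with nothing added and not filtered. The arrays' number limits the precision.

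Linear models in limma 3.58.1 (R 4.3.3) held serum and run (9, from the titles); moderated two-sided p-values were adjusted by Benjamini-Hochberg across the whole table and called under 0.05. Run and interaction were F-tests of the same kind. Covariation is Pearson's r after subtraction of run by serum means. P-values measure the spread between these arrays. The members and lists were chosen with earlier results of these data known. Genes named were the 10 members, the 5 highest and 5 lowest in r with Abca1, the nearest to each other member, and in each list those called or, with none called, that of the largest change; the other listed genes were named after their values were seen. Steps were tested on simulated data. Alternatives covered block, covariates, scaling, pseudocount (16), filter, variance model, weights and runs left out, and 1 array left out was added after seeing the data. A listed gene is not reported here.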

Additional observations from a re-analysis of the deposited data

Results flagged for a closer look

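Within runs and sera of 4 or more arrays, 40 sets of values of the 10 genes were examined for a single array far from the others, and 3 stood out. Chance flags about 1 set in 20, so 3 of 40 is close to the chance number and nothing is read from the count. In the motorneuron run non-carrier array 1 had an Abca1 level of 7.85, while the other 3 had 7.62 to 7.65. The lower carrier mean of Abca1 in that run rested on this array. In the same run non-carrier array 4 had a Srebf1 level of 7.78, while the other 3 had 8.18 to 8.25. In run C 1 carrier array had a Srebf1 level of 7.76, while the other 5 had 7.93 to 8.04.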

How the results depend on the processing

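Abca1 was lower under all 21 settings, but it was chosen for a lower carrier mean in every run. Its sign was thus largely fixed by the choice, and nothing is read from it. Of the other 9 genes, signs turned for those near 0. Abcg1 was 0.046 with 4 motor neuron genes as covariates, 0.0024 after quantile normalization, 0.0097 with array weights and -0.022 to 0.0024 with single runs left out. Srebf1 was -0.0044 with the replicate block, -0.0082 without runs E and F and -0.0082 to 0.027 with single runs left out. Nr1h3 was -0.0051 with no run block, -0.021 after quantile normalization, -0.014 without E and F and -0.0091 to 0.030 with single runs left out. Nr1h2 was 0.0028 with the 4 genes, and Lpcat3 0.0010 with array weights. Of the 9, 3 were called with the 4 genes, 1 (Scd1) after quantile normalization, with dim genes left out and with array weights, and 0 to 1 with single runs left out. Of all genes, limma called 0% with no run block (4.10% at an unadjusted p under 0.05), 31.2% with the 4 genes, 14.3% with array weights, 6.68% of those left when dim genes were left out, 0.301% without E and F and 0.540% to 8.16% with single runs left out, against 2.33%. Pathway genes called numbered 0 with no run block (1 at an unadjusted p under 0.05), after quantile normalization and without E and F, 18 with the 4 genes, 19 with array weights and 0 to 13 with single runs left out, and 1 without the carrier array that stood apart, against 2. The causes were not tested. Labels share replicate numbers in the motorneuron, HB9MNs and 10-week runs only, with carrier and non-carrier mice never the same. Over 8 such pairs the r of deviations was -0.13 to 0.33, with 1 over 0.1, so the numbers were not taken to pair the arrays, and the replicate block changed no call among the 10 genes. Of the residual r with Abca1, that of Srebf1 was -0.23 after centring arrays on their medians and that of Scd1 -0.28 without run C. Removing the first component and leaving out the array that stood apart were added after seeing the data. The latter changed no call among the 9 and no sign of a change over all runs. Within run E it turned the difference from 0.050 to -0.066 for Mylip and from -0.0082 to 0.067 for Srebf1. It also turned that from -0.071 to 0.0082 for Nr1h2 and from -0.034 to 0.038 for Scd1. The counts of runs higher or lower given for Mylip, Nr1h2 and Scd1 thus depend on that array. The median change of all genes was 0.0157, and it was 0.0084 after centring, 0.0015 after quantile normalization and 0.014 with the pseudocount.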
